A study of Mus musculus with 12 samples.

Results

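The genes described here are 38 transcription regulators that steer fat cell formation around its core, the PPAR and C/EBP genes. They were taken as a named list, and all 38 were found among the 37991 genes in the count files. From general knowledge of adipogenesis, 17 were placed with the regulators that promote fat cell fate, 15 with those that restrain it, and 6 with those whose reported role is mixed or less clear. The role of several members depends on the cell system studied, and the list and the roles were assigned with earlier results of these data known.

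Adipogenesis runs as a relay. Early factors such as Klf4, Egr2 and Creb1 respond to the hormonal cocktail and help to switch on C/EBP genes, which switch on Pparg and Cebpa, and later factors such as Klf15, Nr1h3 and Mlxipl act in the maturing, lipid-storing cell. Restraining factors, among them the GATA proteins, Klf2 and Zfp521, repress Pparg, bind C/EBP proteins or hold Ebf1 and Zfp423 in check.

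Mouse embryonic fibroblasts of 4 genotypes had been taken 6 days into adipocyte differentiation, and their poly(A) RNA was sequenced in 12 libraries, 3 per genotype. By their labels, the DKO libraries are Gadd45a-/-;Ing1-/-, the Ing1-KO libraries Ing1-/- and the Gadd45a-KO libraries Gadd45a-/-, and the control is Wildtype (WT). The fibroblasts came from male embryos of interbred mutant lines on a C57BL/6N background at E15.5, and had been through 4 passages. Cultures of all genotypes, WT included, received IBMX, dexamethasone, insulin and the PPARG agonist rosiglitazone for 48 h, and insulin after that. Whether the replicates are separate embryos or separate cultures is not given in the labels, and the p-values below measure only the spread between these libraries, which may be technical.

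Gene reads per library ranged from 42891627 to 52860419. Ing1 RNA followed its label, with 0.681 to 1.15 CPM (gene counts scaled to library size) in the libraries labelled DKO and 1.00 to 1.60 CPM in Ing1-KO, against 43.6 to 47.9 CPM in WT. Gadd45a RNA went against its label: it lay at 138 to 142 CPM in the libraries labelled DKO and at 141 to 144 CPM in those labelled Gadd45a-KO, against 14.5 to 17.9 CPM in WT. Gene-level counts show neither which exons the reads cover nor whether labels were exchanged, so every genotype name that involves Gadd45a rests on the labels, and so does every direction drawn from it. A list of 30 adipocyte markers set the cultures apart: its mean log2 CPM was 1.67, 1.5 and 2.02 in the libraries labelled DKO, 5.65, 4.13 and 2.40 in Ing1-KO, 4.59, 4.56 and 4.13 in those labelled Gadd45a-KO, and 5.81, 4.68 and 5.76 in WT. All 30 markers had a negative fold change in the libraries labelled DKO against WT, and within them Lep was at 0 in DKO replicate 2 and Retn in DKO replicate 3, while the other markers were above 0 in every library. The summed level of 25 macrophage and leukocyte markers was 9536 to 10071 CPM in the libraries labelled DKO, 5073 to 5933 CPM in Ing1-KO, 2741 to 7851 CPM for the label Gadd45a-KO and 5034 to 5793 CPM in WT. A sum over 16 cartilage and bone markers was 793 to 996 CPM in the libraries labelled DKO, 846 to 1066 CPM in Ing1-KO, 575 to 744 CPM for the label Gadd45a-KO and 569 to 630 CPM in WT, and most of it came from Col11a1, a fibrillar collagen gene. The chondrocyte gene Cnmd, which was not tested, was at 0 in the libraries labelled DKO and in Ing1-KO replicate 3. Of the 14 tested markers of this list, 5 rose against WT in the libraries labelled DKO, where 5.94% of all tested genes rose. Acan, Col10a1 and Col11a1 were among them, and 1 marker, Sox9, fell. In Ing1-KO against WT 4 rose, Acan, Col10a1 and Col11a1 again among them, and none fell, where 2.40% of all tested genes rose. These calls are at an adjusted p under 0.05 by edgeR. The sum of 12 smooth muscle markers was 8351 to 12112 CPM in the libraries labelled DKO, 6830 to 9561 CPM in Ing1-KO, 8286 to 8802 CPM for the label Gadd45a-KO and 7101 to 8614 CPM in WT. Endothelial markers summed to 6.23 to 11.6 CPM over all libraries and skeletal muscle markers to 18.3 to 40.8 CPM, and the muscle gene Ckm was at 0 in every library. In bulk RNA, fewer cells of a type and less RNA per cell cannot be told apart.

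Most of the regulators were expressed in every genotype. Per kilobase of annotated exon, Prrx1, a mesenchymal homeobox factor, had the highest level of the 38, at a mean of 71.1 RPKM over the 12 libraries. Klf6, which represses the preadipocyte gene Dlk1, followed at 50.3 RPKM, and Id3, a helix-loop-helix inhibitor, at 46.4 RPKM. The median level was 4.98 RPKM among the promoting members and 6.08 RPKM among the restraining ones. A mean level under 1 RPKM was found for 8 of the 38, among them Zfp423, Klf15, Klf5 and Mlxipl on the promoting side and Gata2 and Gata3 on the restraining side. Tcf21, a marker of some mesenchymal progenitors, was the lowest at 0.0438 RPKM and was the only member under the filter on low counts, so 37 members were tested.

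**Figure D1:**
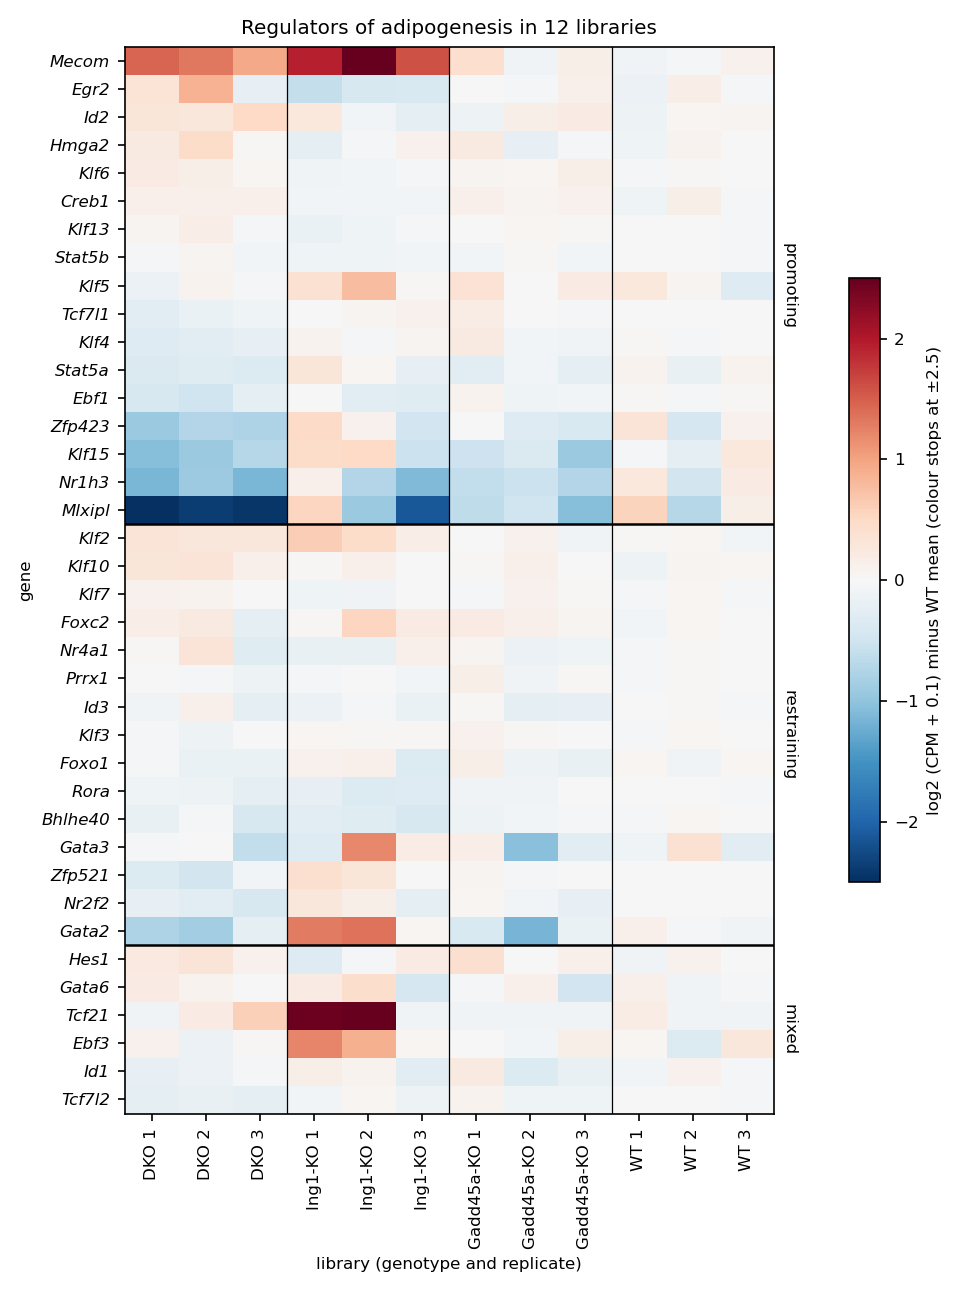
Level of each of the 38 regulators in each library, as log2 (CPM + 0.1) minus the mean of the 3 WT libraries; red is above and blue below WT, libraries are in columns, and promoting, restraining and mixed members form blocks from top to bottom. Mecom is red in all 6 libraries lacking Ing1, and Mlxipl, Nr1h3, Klf15 and Zfp423 are blue in the 3 libraries labelled DKO.

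The first comparison set the libraries labelled DKO against WT, to ask which regulators differ where the labels give both genes as mutated. By edgeR's quasi-likelihood test with Benjamini-Hochberg adjustment over 16163 genes, 7 of the 37 tested members were called at an adjusted p under 0.05, where 13.0% of all tested genes were called. Of all tested genes 5.94% rose and 7.09% fell. Among the 17 promoting members, Mecom rose, and Mlxipl, Nr1h3, Ebf1 and Klf4 fell. Among the 15 restraining members, Klf10 rose and none fell. Of the mixed members, Tcf7l2 fell. The number of restraining members at an unadjusted p under 0.05 was 6, and of promoting members 12, where 28.8% of all tested genes were under it.

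Mecom encodes a zinc-finger protein related to Prdm16 that has been found to promote early adipogenesis in cultured mouse cells. It stood at 19.7, 18 and 13.9 CPM in the libraries labelled DKO and at 27.9, 40.5 and 21.7 CPM in Ing1-KO. In those labelled Gadd45a-KO it stood at 9.61, 6.71 and 7.85 CPM, and at 6.73, 6.98 and 7.72 CPM in WT. All 6 libraries lacking Ing1 thus lay above all 6 that have it. The cartilage and bone marker sum separated the same libraries, at 793 to 1066 CPM in those lacking Ing1, against 569 to 744 CPM in those with it. The mean log2 CPM of that list did not separate them, with DKO replicate 3 at 1.76 and WT replicate 2 at 1.90. The part of these markers in the Mecom difference was not tested. Mecom rose in the libraries labelled DKO against WT, and its log2 fold change was 1.26, with a standard error (the value after ± throughout) of 0.23 (adjusted p = 0.0111, edgeR).

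Mlxipl encodes ChREBP, the glucose-sensing activator of lipogenic genes. Its level was 0.0939, 0.309 and 0.289 CPM in the libraries labelled DKO, against 3.00, 1.19 and 2.25 CPM in WT, and the groups did not overlap. The log2 fold change was -3.19 ± 0.798 (adjusted p = 0.0299, edgeR). Nr1h3 encodes LXR alpha, the oxysterol receptor that drives cholesterol export and lipogenic genes. Its level was 5.21, 6.16 and 5.26 CPM in the libraries labelled DKO, against 14.1, 8.41 and 13.4 CPM in WT, again without overlap. The log2 fold change was -1.11 ± 0.295 (adjusted p = 0.0354, edgeR).

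The other called members changed by less than 1.5-fold. Ebf1, an early B-cell factor that acts upstream of Pparg, had 66.8, 62.9 and 76.1 CPM in the libraries labelled DKO, against 90.2, 85.5 and 90.8 CPM in WT, a log2 fold change of -0.37 ± 0.0899 (adjusted p = 0.0240, edgeR). Klf4, an early activator of Cebpb, had 63.8, 66.6 and 68.8 CPM in the libraries labelled DKO, against 80.9, 78.1 and 80.0 CPM in WT, a log2 fold change of -0.26 ± 0.0738 (adjusted p = 0.0397, edgeR). Neither gene's libraries overlapped between these groups. Tcf7l2, a transcriptional partner of beta-catenin in Wnt signalling, had 18.4, 19.0 and 18.5 CPM in the libraries labelled DKO, against 22, 21.9 and 21.4 CPM in WT, a log2 fold change of -0.23 ± 0.0632 (adjusted p = 0.0391, edgeR). Klf10, a TGF-beta-induced repressor, had 40.7, 41.5 and 36.3 CPM in the libraries labelled DKO, against 30.5, 34.8 and 34.5 CPM in WT, a log2 fold change of 0.25 ± 0.0691 (adjusted p = 0.0381, edgeR). These groups did not overlap either.

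**Figure D2:**
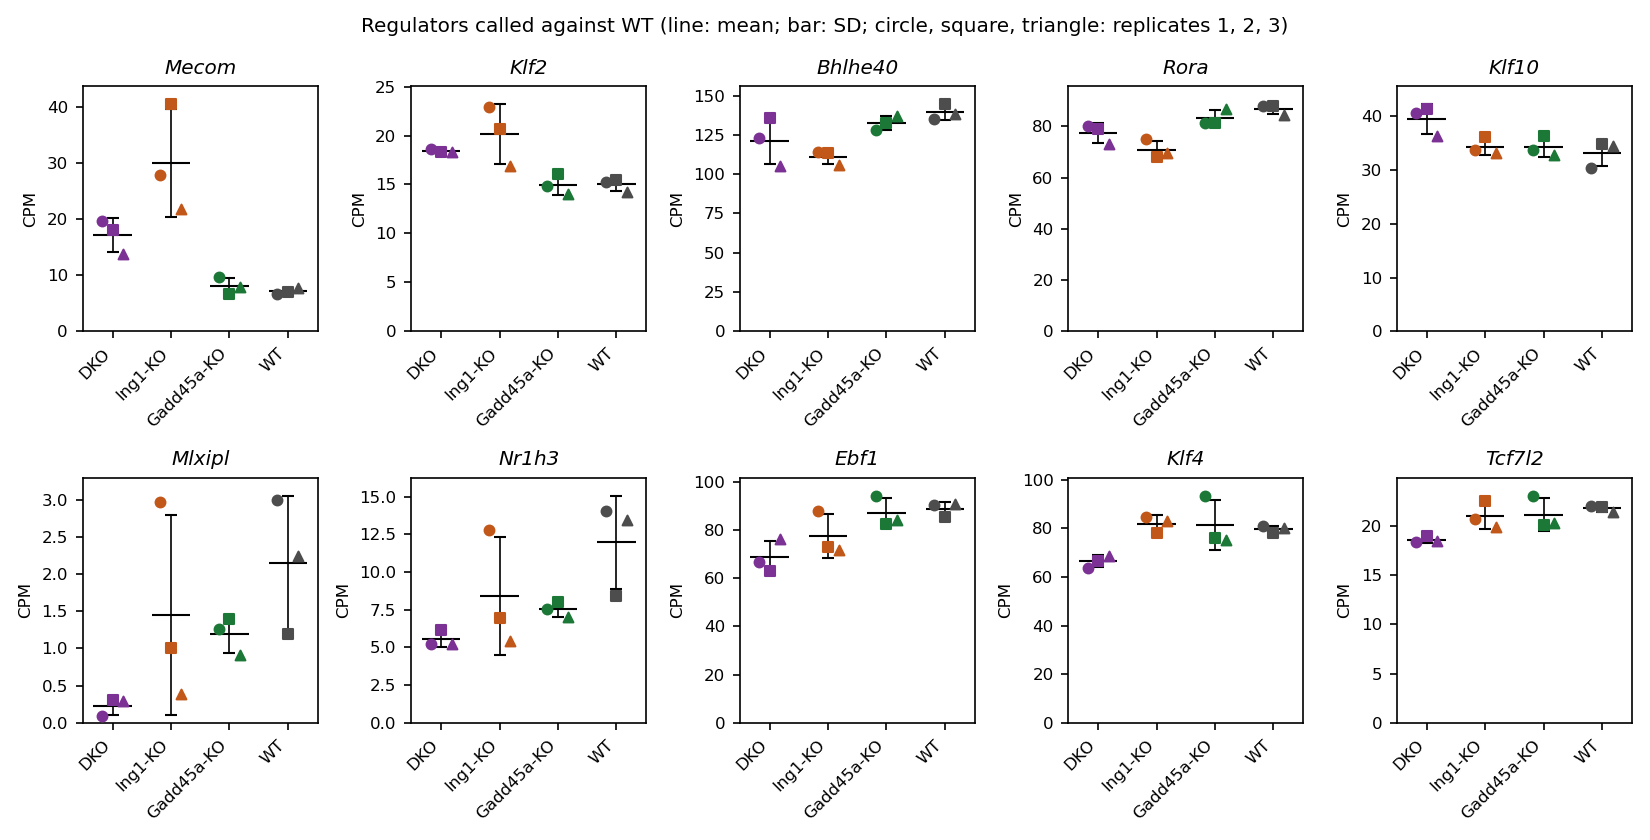
CPM per library of the 10 regulators called in the libraries labelled DKO or in Ing1-KO against WT, by genotype, with a line at the mean and a bar for the SD of 3 libraries. Mecom lies between 13.9 and 40.5 CPM in the 6 libraries lacking Ing1 and between 6.71 and 9.61 CPM in the other 6, while Mlxipl and Nr1h3 spread widely among the Ing1-KO and WT libraries.

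Several further promoting members had negative fold changes that missed the threshold. Zfp423, a zinc-finger factor that commits cells to the preadipocyte state, had 2.47, 2.83 and 2.76 CPM in the libraries labelled DKO, against 5.96, 3.53 and 5.14 CPM in WT (log2 fold change -0.86 ± 0.259, adjusted p = 0.0520, edgeR). Klf15, an activator of Pparg and of the glucose transporter Slc2a4, had 0.610, 0.685 and 0.804 CPM in the libraries labelled DKO, against 1.36, 1.15 and 1.69 CPM in WT (log2 fold change -1.0 ± 0.317, adjusted p = 0.0609, edgeR). Stat5a, a mediator of growth hormone signals, had 13.7, 14.4 and 14.0 CPM in the libraries labelled DKO, against 19.0, 15.7 and 18.7 CPM in WT (log2 fold change -0.34 ± 0.118, adjusted p = 0.0790, edgeR). In all 3 genes the libraries labelled DKO lay below every WT library. Id2, a helix-loop-helix inhibitor that supports Pparg expression, lay the other way without overlap, at 47.3, 46.5 and 54.1 CPM in the libraries labelled DKO, against 35.3, 39.6 and 40.3 CPM in WT (log2 fold change 0.36 ± 0.128, adjusted p = 0.0887, edgeR). Klf6 also lay higher without overlap (log2 fold change 0.14 ± 0.0438, adjusted p = 0.0655, edgeR), and Tcf7l1 lower (-0.17 ± 0.0588, adjusted p = 0.0730, edgeR). The restraining side had such near misses in both directions, again without overlap. Rora lay lower (log2 fold change -0.16 ± 0.0492, adjusted p = 0.0518, edgeR) and Klf2 higher (0.30 ± 0.0962, adjusted p = 0.0655, edgeR).

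Taken as classes in this comparison, the promoting members were spread more widely around WT than the restraining ones, while the class medians lay close to each other. In Ing1-KO against WT alone of the pairwise comparisons the order of the spread was the other way, as given below. A mean level under 1 RPKM was found for 4 of the promoting and 2 of the restraining members. The median log2 fold change in the libraries labelled DKO against WT was -0.05 for the 17 promoting members and -0.06 for the 15 restraining ones, beside -0.0026 for all genes tested. The median size of the change, whatever its sign, was 0.34 for the promoting and 0.16 for the restraining members, beside 0.13 for all genes. For the label Gadd45a-KO against WT these sizes were 0.09 and 0.06, beside 0.07. For DKO against Gadd45a-KO they were 0.28 and 0.10, beside 0.10, and for DKO against Ing1-KO 0.36 and 0.13, beside 0.14. These comparisons share libraries and do not repeat each other independently. Library values that did not overlap with WT were found for 19 of the 37 members, where 37.3% of all tested genes had such values, 17.6% higher and 19.7% lower. Of these 19, 11 were promoting members, 3 higher and 8 lower, and 6 were restraining members, 2 higher and 4 lower.

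The levels of the late promoting members Nr1h3 and Mlxipl went with those of the adipocyte markers. The 4 libraries with the lowest marker mean, the 3 labelled DKO and Ing1-KO replicate 3, had the 4 lowest levels of Nr1h3 and the 4 lowest of Mlxipl. The 3 libraries with the highest marker mean, WT replicates 1 and 3 and Ing1-KO replicate 1, had the 3 highest levels of both. Klf15, also a late factor, did not follow this order: its 4 lowest libraries were the 3 labelled DKO and Gadd45a-KO replicate 3, at 0.679 CPM, and its highest was Ing1-KO replicate 2, at 2.01 CPM. When the marker mean was added to the fit as a covariate, none of the 7 calls held: the log2 fold change was then 0.41 for Nr1h3 (adjusted p = 0.494, edgeR), 0.41 for Mlxipl (adjusted p = 0.775), -0.01 for Ebf1 (adjusted p = 0.991) and 1.60 for Mecom (adjusted p = 0.197). The 3 libraries labelled DKO also had the lowest marker means of all 12, so this covariate and the genotype overlap. The leukocyte marker sum was 9536 to 10071 CPM in the libraries labelled DKO, against 5034 to 5793 CPM in WT. Of the 12 smooth muscle markers 5 rose in the libraries labelled DKO and none fell, where 5.94% of all tested genes rose. The part of the leukocyte and smooth muscle markers in these differences was not tested.

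**Figure D3:**
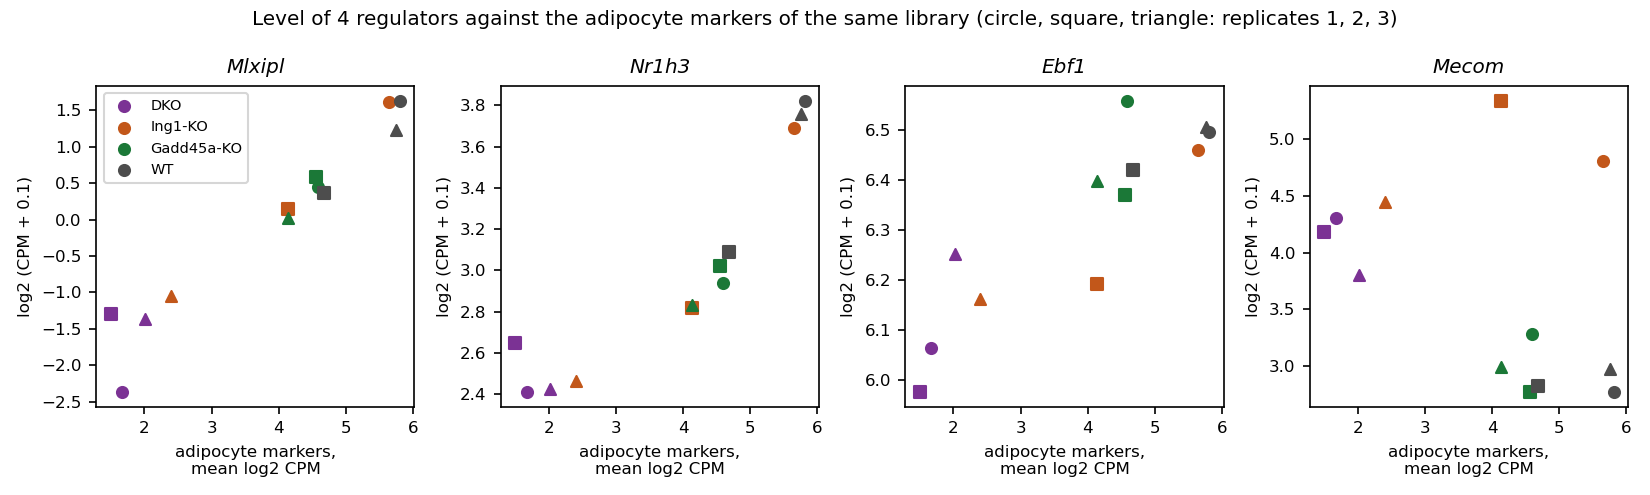
Level of Mlxipl, Nr1h3, Ebf1 and Mecom in each library, as log2 (CPM + 0.1), against the mean log2 CPM of 30 adipocyte markers in the same library. Mlxipl and Nr1h3 are lowest in the 4 libraries with a marker mean under 2.5, whereas Mecom is above 3.5 on this scale in the 6 libraries lacking Ing1 at marker means from 1.5 to 5.65.

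The calls against WT in the libraries labelled DKO depended on single libraries. Without DKO replicate 1 or without WT replicate 1, 0 of the members were called. Without WT replicate 3 the count was 1 (Mecom) and without DKO replicate 2 it was 2. It was 12 when Ing1-KO replicate 1 was left out and 13 when its replicate 3 was. Leaving out a library changes the fit of all genes. The share of all tested genes called is not given for these fits or for those without a library below. These counts therefore do not show whether the members differ from other genes.

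Promoter sequences are given for Mecom, Nr1h3 and Mlxipl because these promoting regulators had the largest called changes against WT. They come from RefSeq on GRCm38.p6, which matched 30 of the 38 members, and run 5′ to 3′ on the gene's strand from 250 bases before to 50 bases after an annotated start. Capitals mark 4 short motifs, searched on both strands: the E-box CACGTG, which the Mlxipl protein and other helix-loop-helix factors can bind, the CACCC box (CACCC) and the GC box GGGCGG, which zinc-finger proteins of the Klf and Sp families can bind, and the nuclear receptor half-site AGGTCA. No hits of different motifs overlapped in the windows printed.
Mecom first start, minus strand, chr3:30509710-30510009: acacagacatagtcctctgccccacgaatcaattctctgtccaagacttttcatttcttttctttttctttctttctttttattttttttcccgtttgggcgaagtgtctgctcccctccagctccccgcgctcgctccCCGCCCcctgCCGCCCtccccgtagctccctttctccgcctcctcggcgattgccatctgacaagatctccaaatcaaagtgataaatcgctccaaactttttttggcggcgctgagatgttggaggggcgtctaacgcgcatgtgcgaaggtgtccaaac
Mecom second start, minus strand, chr3:30013155-30013454: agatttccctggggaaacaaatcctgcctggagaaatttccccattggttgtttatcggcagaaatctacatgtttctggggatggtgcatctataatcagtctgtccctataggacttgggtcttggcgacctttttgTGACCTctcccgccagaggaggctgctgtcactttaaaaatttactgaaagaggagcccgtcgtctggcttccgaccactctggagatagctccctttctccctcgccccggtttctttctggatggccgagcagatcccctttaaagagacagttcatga
Nr1h3, minus strand, chr2:91195067-91195366: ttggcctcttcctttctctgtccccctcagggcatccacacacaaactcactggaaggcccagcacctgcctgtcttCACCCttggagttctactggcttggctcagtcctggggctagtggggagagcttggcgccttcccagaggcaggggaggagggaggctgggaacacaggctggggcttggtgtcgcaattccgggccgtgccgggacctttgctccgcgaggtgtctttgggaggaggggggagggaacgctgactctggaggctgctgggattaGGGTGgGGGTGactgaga
Mlxipl first start, plus strand, chr5:135089640-135089939: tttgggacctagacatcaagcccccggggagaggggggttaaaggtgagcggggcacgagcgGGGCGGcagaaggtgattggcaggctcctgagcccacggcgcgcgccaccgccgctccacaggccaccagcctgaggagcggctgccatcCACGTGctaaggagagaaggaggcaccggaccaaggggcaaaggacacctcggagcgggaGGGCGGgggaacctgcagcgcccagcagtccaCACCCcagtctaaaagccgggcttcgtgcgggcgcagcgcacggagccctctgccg
The first Mecom window held 2 GC boxes and the second 1 nuclear receptor half-site. The window shown for Nr1h3 is that of its most upstream listed start, and any other starts of this gene are not shown. It held 3 CACCC boxes. The Mlxipl window held 1 E-box, 1 CACCC box and 2 GC boxes, and the window at another Mlxipl start, chr5:135106641-135106940, held none of the motifs. Among 32544 RefSeq promoters of this length, 7.17% held the E-box, 57.7% the CACCC box, 35.9% the GC box and 16.2% the half-site. Of the 43 windows of the 30 matched members, 11.6% held the E-box, 67.4% the CACCC box, 62.8% the GC box and 11.6% the half-site. A match describes the letters in the window only, and gene counts cannot tell which start was used.

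Setting Ing1-KO against WT addresses the loss of Ing1 alone. By edgeR's quasi-likelihood test 4 of the 37 members were called, where 4.32% of all tested genes were called. Of the promoting members Mecom rose and none fell. Of the restraining members Klf2 rose, and Bhlhe40 and Rora fell, where 2.40% of all tested genes rose and 1.92% fell. Mecom, with the library values given above, rose by a log2 fold change of 2.07 ± 0.229 (adjusted p = 0.00244, edgeR). Among the 21 called differences between genotypes in these regulators it alone was called whichever of the 12 libraries was left out, with adjusted p-values up to 0.0213, and under all 9 other settings.

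Klf2, a Krüppel-like repressor of the Pparg promoter, had 22.9, 20.7 and 16.9 CPM in Ing1-KO, against 15.29, 15.499 and 14.23 CPM in WT (log2 fold change 0.43 ± 0.0957, adjusted p = 0.0345, edgeR). Rora, an orphan nuclear receptor that restrains adipogenesis, had 74.9, 68.0 and 69.5 CPM in Ing1-KO, against 87.8, 87.8 and 84.4 CPM in WT (log2 fold change -0.29 ± 0.0493, adjusted p = 0.0123, edgeR). Bhlhe40, a clock-linked helix-loop-helix repressor, had 114, 113 and 106 CPM in Ing1-KO, against 135, 145 and 138 CPM in WT (log2 fold change -0.33 ± 0.0748, adjusted p = 0.0372, edgeR). The libraries of these 3 genes did not overlap between Ing1-KO and WT, and such values were found for 8 of the 37 members, where 26.6% of all tested genes had them. The 3 restraining genes therefore did not change in a common direction.

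Without DKO replicate 1, Gadd45a-KO replicate 3, Ing1-KO replicate 2 or any of the WT replicates, the count in Ing1-KO against WT was 1 or 2, always with Mecom, and without Ing1-KO replicate 3 it was 7. The members gained without Ing1-KO replicate 3 were Zfp521, Gata2, Ebf3 and Tcf21. Replicate 3 was the lowest Ing1-KO library for each of them, so leaving it out favours these calls. Tcf21, with 24, 31 and 0 reads in Ing1-KO, was under the filter on low counts with all 12 libraries. Its call follows from leaving out the library at 0 and is not read as a result. With the adipocyte marker mean as a covariate all 4 calls held, and Stat5a, Zfp521, Gata2 and Ebf3 were called as well, each of them higher in Ing1-KO.

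Some regulators differed widely between the Ing1-KO libraries themselves. Gata2, a zinc-finger repressor of Pparg, had 4.95, 5.15 and 2.00 CPM in Ing1-KO, against 2.14, 1.89 and 1.81 CPM in WT (log2 fold change 1.05 ± 0.343, adjusted p = 0.115, edgeR). Ebf3, a relative of Ebf1, had 25.5, 20.2 and 11.2 CPM in Ing1-KO, against 11.2, 8.54 and 13.1 CPM in WT (log2 fold change 0.79 ± 0.256, adjusted p = 0.116, edgeR). Tcf21 had 24, 31 and 0 reads in Ing1-KO, 0, 1 and 3 reads in the libraries labelled DKO, 0 in each labelled Gadd45a-KO and 1, 0 and 0 reads in WT. In each of these genes Ing1-KO replicates 1 and 2 were high and replicate 3 was near the WT values or at 0. Zfp521, a repressor of Ebf1 and Zfp423, had 109, 103 and 83.2 CPM in Ing1-KO, against 82.4, 83.3 and 84.0 CPM in WT (log2 fold change 0.24 ± 0.106, adjusted p = 0.225, edgeR). Ing1-KO replicate 3 also had the lowest adipocyte marker mean of that genotype, 2.40, against 5.65 and 4.13 in replicates 1 and 2, and the part of that difference in these values was not tested.

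**Figure D4:**
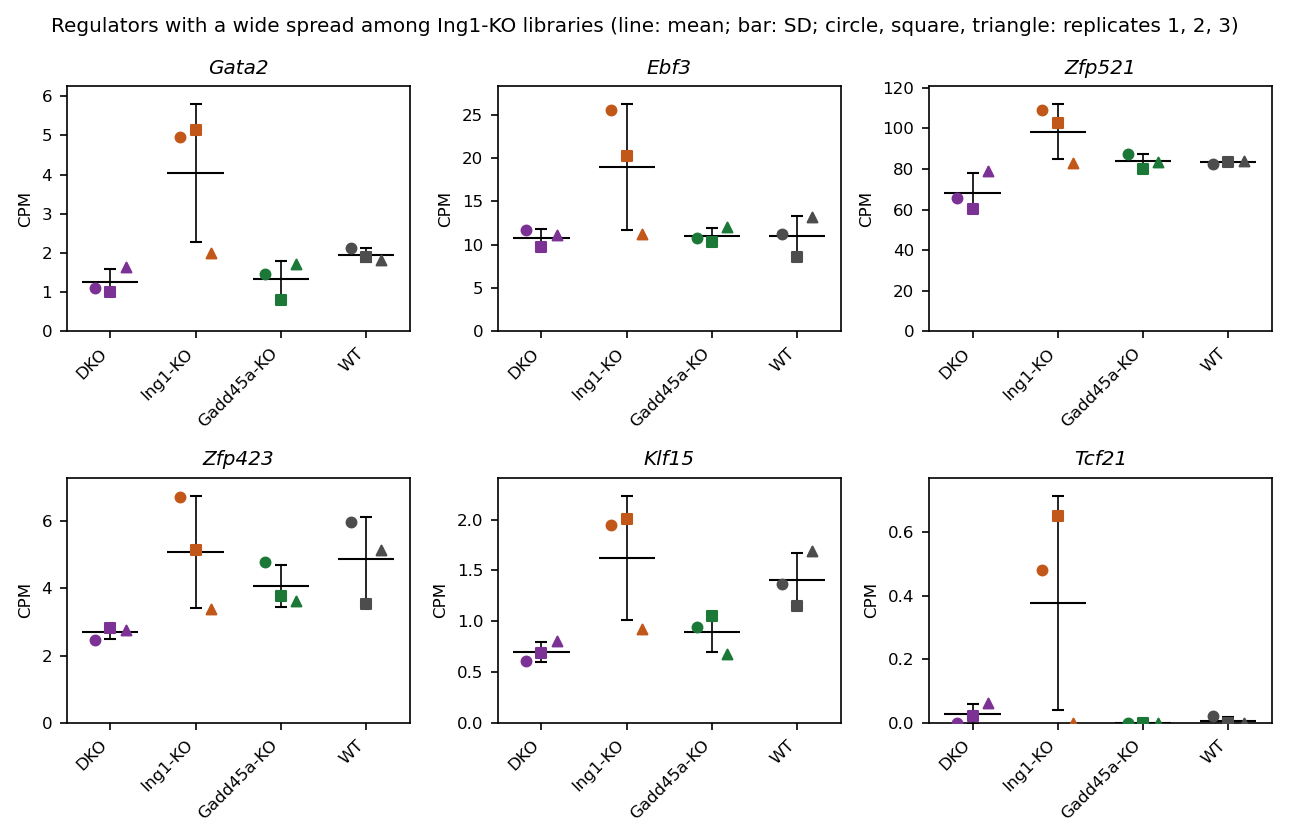
CPM per library of 6 regulators whose Ing1-KO libraries spread widely, by genotype, with a line at the mean and a bar for the SD of 3 libraries. Triangles mark replicate 3, which in Ing1-KO lies at 2.00 CPM for Gata2 and at 11.2 CPM for Ebf3, under the circle and square of replicates 1 and 2.

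The median log2 fold change in Ing1-KO against WT was -0.06 for the promoting members and 0.04 for the restraining ones, beside 0.0031 for all genes tested. The median size of the change was 0.09 for the promoting and 0.12 for the restraining members, beside 0.11 for all genes.

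Set against WT, the libraries labelled Gadd45a-KO address the Gadd45a-/- label alone. By edgeR's quasi-likelihood test 0 of the 37 members were called, where 0.0124% of all tested genes were called, and by DESeq2 also 0, beside 0.0231% of all genes. An unadjusted p under 0.05 was found for 5.48% of all tested genes and for 1 member, Nr1h3, with 7.55, 8.01 and 7.03 CPM in these libraries, against 14.1, 8.41 and 13.4 CPM in WT (log2 fold change -0.67 ± 0.285, adjusted p = 0.880, edgeR). Mlxipl, at 1.26, 1.40 and 0.913 CPM in these libraries, overlapped with the WT values of 3.00, 1.19 and 2.25 CPM (log2 fold change -0.85 ± 0.569, adjusted p = 0.885, edgeR). Klf15 had 0.942, 1.05 and 0.679 CPM in this genotype, below all WT libraries at 1.36, 1.15 and 1.69 CPM (log2 fold change -0.65 ± 0.297, adjusted p = 0.880, edgeR). The adipocyte marker mean was 4.13 to 4.59 in these libraries, against 4.68 to 5.81 in WT.

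**Figure D5:**
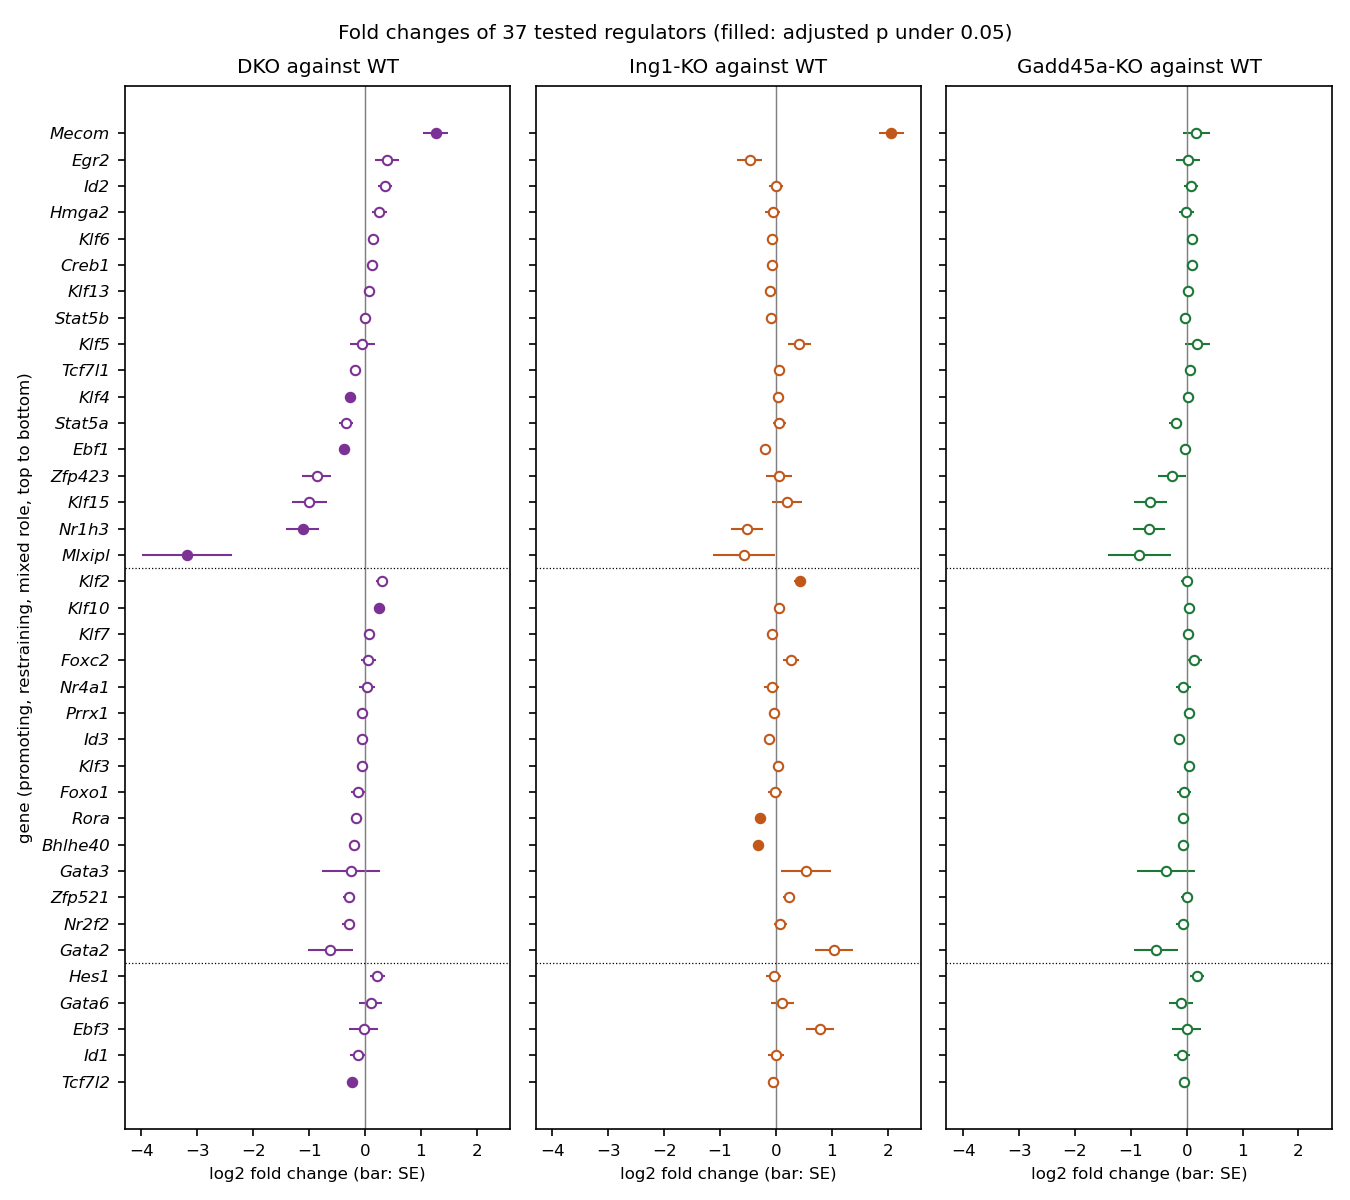
Log2 fold change with its SE for the 37 tested regulators in the libraries labelled DKO, in Ing1-KO and in those labelled Gadd45a-KO, each against WT; filled points have an adjusted p under 0.05 by edgeR's quasi-likelihood test. Mecom is the one filled point among the promoting members in Ing1-KO, and no point is filled for Gadd45a-KO.

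What loss of Ing1 does among libraries that share the Gadd45a-/- label is addressed by the libraries labelled DKO against those labelled Gadd45a-KO. By edgeR's quasi-likelihood test 0 of the 37 members were called, where 1.26% of all tested genes were called, and 12 had an unadjusted p under 0.05, where 20.0% of all tested genes did. DESeq2 called 5 members, beside 8.22% of all genes, Mecom higher and Klf4, Ebf1, Tcf7l1 and Mlxipl lower. Mecom had the smallest p of the members in this comparison, with a log2 fold change of 1.09 ± 0.228 (adjusted p = 0.0515, edgeR). All 3 libraries labelled DKO, at 13.9 to 19.7 CPM, lay above those labelled Gadd45a-KO, at 6.71 to 9.61 CPM. The edgeR count was 2 when DKO replicate 3 or Ing1-KO replicate 1 or 3 was left out and 1 when Ing1-KO replicate 2 was, each time with Mecom called.

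What goes with the Gadd45a-/- label where Ing1 is missing is addressed by the libraries labelled DKO against Ing1-KO. By edgeR's quasi-likelihood test 10 of the 37 members were called, where 11.7% of all tested genes were called. Of the 17 promoting members 3 rose, Klf6, Egr2 and Creb1, and 5 fell, Klf4, Klf15, Zfp423, Tcf7l1 and Mecom. Of the 15 restraining members none rose and 2 fell, Zfp521 and Gata2. No member of mixed role was called, and of all tested genes 5.91% rose and 5.76% fell.

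The early-response factors did not move together. Egr2, an immediate-early zinc-finger factor also called Krox20, had 8.45, 12.1 and 5.69 CPM in the libraries labelled DKO, against 4.37, 4.98 and 5.04 CPM in Ing1-KO (log2 fold change 0.87 ± 0.22, adjusted p = 0.0350, edgeR). Creb1, the cAMP-responsive activator, had 72.4, 72.3 and 72.6 CPM in the libraries labelled DKO, against 63.1, 63.7 and 63.7 CPM in Ing1-KO (log2 fold change 0.19 ± 0.0521, adjusted p = 0.0417, edgeR). Klf4 fell, with 63.8, 66.6 and 68.8 CPM in the libraries labelled DKO, against 84.5, 78.1 and 83.1 CPM in Ing1-KO (log2 fold change -0.30 ± 0.0738, adjusted p = 0.0304, edgeR). The groups did not overlap for any of these genes, although the Egr2 values of the libraries labelled DKO ranged widely.

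Among the other Krüppel-like and commitment factors, Klf6 had 246, 239 and 223 CPM in the libraries labelled DKO, against 202, 204 and 207 CPM in Ing1-KO (log2 fold change 0.21 ± 0.0438, adjusted p = 0.0226, edgeR). Klf15 had 0.610, 0.685 and 0.804 CPM in the libraries labelled DKO, against 1.95, 2.01 and 0.923 CPM in Ing1-KO (log2 fold change -1.20 ± 0.308, adjusted p = 0.0350, edgeR). Zfp423 had 2.47, 2.83 and 2.76 CPM in the libraries labelled DKO, against 6.72, 5.15 and 3.39 CPM in Ing1-KO (log2 fold change -0.92 ± 0.257, adjusted p = 0.0450, edgeR). In both Klf15 and Zfp423, Ing1-KO replicate 3 was the one nearest to the libraries labelled DKO. Tcf7l1, a mostly repressive TCF protein of the Wnt pathway, had 28.4, 30.3 and 31.4 CPM in the libraries labelled DKO, against 34.1, 35.6 and 36.6 CPM in Ing1-KO (log2 fold change -0.24 ± 0.0587, adjusted p = 0.0307, edgeR). In the GENCODE annotation Tcf7l1 is the only member within 10 Mb of Gadd45a, on chromosome 6. Klf15, Gata2 and Bhlhe40 lie farther off on that chromosome. Zfp423, Klf2 and Foxc2 lie on chromosome 8 with Ing1, also not within 10 Mb of it.

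Mecom was lower in the libraries labelled DKO, at 13.9 to 19.7 CPM, than in Ing1-KO, at 21.7 to 40.5 CPM (log2 fold change -0.81 ± 0.216, adjusted p = 0.0420, edgeR). Its level was thus above that of WT in both, but not equal between them. Zfp521 had 65.7, 60.5 and 78.9 CPM in the libraries labelled DKO, against 109, 103 and 83.2 CPM in Ing1-KO (log2 fold change -0.52 ± 0.106, adjusted p = 0.0216, edgeR). Gata2 had 1.10, 1.02 and 1.65 CPM in the libraries labelled DKO, against 4.95, 5.15 and 2.00 CPM in Ing1-KO (log2 fold change -1.67 ± 0.37, adjusted p = 0.0259, edgeR). The means of both restraining factors were thus lowest in the libraries labelled DKO and highest in Ing1-KO, with WT between them. For Gata2 the libraries labelled Gadd45a-KO, at 1.47, 0.811 and 1.72 CPM, overlapped with those labelled DKO. The log2 fold change between these 2 groups was -0.07 ± 0.429 (adjusted p = 0.951, edgeR), so its low level was not particular to the libraries labelled DKO.

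Of these 10 calls, 0 held with the adipocyte marker mean as a covariate, whose values were 1.5 to 2.02 in the libraries labelled DKO and 2.40 to 5.65 in Ing1-KO. The count was 0 without DKO replicate 1, DKO replicate 2 or Ing1-KO replicate 2, 1 when Ing1-KO replicate 1 was left out, 6 without Gadd45a-KO replicate 3 or WT replicate 3, and 20 without Ing1-KO replicate 3.

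The interaction asked whether the difference that goes with loss of Ing1 depends on the Gadd45a label, and 0 of the 37 members were called by edgeR, where 0% of all tested genes were called. By DESeq2 0 members were called too, beside 1.01% of all genes. An unadjusted p under 0.05 was found for 13.6% of all tested genes and for 7 members: Tcf7l1, Zfp521, Klf4, Mecom, Egr2, Rora and Klf3. The interaction term was -0.98 ± 0.32 for Mecom (adjusted p = 0.273, edgeR) and -0.54 ± 0.15 for Zfp521 (adjusted p = 0.255, edgeR). Without Ing1-KO replicate 3, Zfp521 alone was called. The rise of Mecom with loss of Ing1 is thus not shown to differ between the backgrounds.

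Pooling genotypes by the state of Ing1, 3 members had values that did not overlap between the 6 libraries lacking Ing1 and the 6 with it, where 3.01% of all tested genes had such values. Mecom ranged from 13.9 to 40.5 CPM in the libraries lacking Ing1, against 6.71 to 9.61 CPM in those with it. Klf2 ranged from 16.9 to 22.9 CPM in the libraries lacking Ing1, against 14.0 to 16.1 CPM in those with it. Rora ranged from 68.0 to 80.1 CPM in the libraries lacking Ing1, against 81.3 to 87.8 CPM in those with it. These are the libraries that the cartilage and bone marker sum separates as well, although the mean log2 CPM of that list does not. Split by the Gadd45a label instead, 2 members did not overlap, Klf6, higher, and Gata2, lower, in the 6 libraries labelled DKO or Gadd45a-KO than in the other 6, where 1.10% of all tested genes had such values.

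Over the 5 pairwise comparisons, 18 of the 38 members were called at least once and 20 were not, Tcf21 included, where 21.3% of all tested genes were called at least once. The members not called were Klf5, Klf13, Stat5a, Stat5b, Hmga2 and Id2 of the promoting side, Klf3, Klf7, Gata3, Nr2f2, Nr4a1, Foxo1, Foxc2, Id3 and Prrx1 of the restraining side, and Ebf3, Gata6, Hes1, Id1 and Tcf21. Among them are abundant genes with narrow spread. Prrx1 ranged from 729 to 884 CPM over the 12 libraries, and its log2 fold change in the libraries labelled DKO against WT was -0.05 ± 0.0589. Stat5b ranged from 38.4 to 43.5 CPM, and Klf3 from 58.1 to 68.2 CPM. Hmga2, a chromatin protein that promotes preadipocyte growth, was less even, at 75.3, 88.4 and 65.9 CPM in the libraries labelled DKO, against 60.0, 68.5 and 64.4 CPM in WT (log2 fold change 0.25 ± 0.133, adjusted p = 0.247, edgeR). Nr2f2, a COUP-TF orphan receptor that restrains Pparg, had 20.3, 19.3 and 17.6 CPM in the libraries labelled DKO, against 23.3, 23.6 and 23.1 CPM in WT, without overlap (log2 fold change -0.29 ± 0.114, adjusted p = 0.119, edgeR).

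The genes around these regulators were also counted. Of 6 core adipogenic regulators, 4 fell in the libraries labelled DKO against WT and none rose, where 13.0% of all tested genes were called. Pparg, the master regulator, had 1.74, 1.94 and 2.48 CPM in the libraries labelled DKO, against 20.6, 11 and 19.6 CPM in WT (log2 fold change -3.05 ± 0.628, adjusted p = 0.0163, edgeR), and Cebpa had 21.9, 21.6 and 22.3 CPM, against 56.0, 30.9 and 48.6 CPM (log2 fold change -1.04, adjusted p = 0.0622, edgeR). In Ing1-KO against WT 1 of the 6 fell, Cebpb (log2 fold change -0.23 ± 0.0481, adjusted p = 0.0283, edgeR), where 4.32% of all tested genes were called.

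Of 40 tested relatives and partners of the members, 1 rose and 3 fell in the libraries labelled DKO against WT. That is 10% of them, where 13.0% of all tested genes were called. Bhlhe41, the paralog of Bhlhe40, rose (log2 fold change 0.56 ± 0.136, adjusted p = 0.0258, edgeR), while Nr4a2, a relative of Nr4a1, fell (-0.35 ± 0.0649, adjusted p = 0.0106), as did Stat3 (-0.14 ± 0.0334, adjusted p = 0.0240) and Nr2f1, the paralog of Nr2f2 (-0.64 ± 0.188, adjusted p = 0.0472). In Ing1-KO against WT only Foxc1, a relative of Foxc2, was called, and it rose (log2 fold change 1.17 ± 0.184, adjusted p = 0.00924, edgeR). It makes up 2.5% of the list, where 4.32% of all tested genes were called. In the libraries labelled DKO against Ing1-KO, 1 of the 40 rose and 4 fell, or 12.5%, where 11.7% of all tested genes were called. The relatives were thus called about as often as all genes, and the calls are not read as a result about the list.

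Of 14 tested target genes of the members, 2 rose and 5 fell in the libraries labelled DKO against WT. Of all tested genes 13.0% were called in that comparison. Scd1 and Pck1, both among those that fell, and Slc2a4 are also in the adipocyte marker list. The fall of targets is thus in part the fall of those markers. The lipogenic genes Scd1 and Fasn, which LXR and ChREBP activate, were among those that fell: Scd1 had 156, 136 and 198 CPM in the libraries labelled DKO, against 3266, 1750 and 3068 CPM in WT (log2 fold change -4.05 ± 0.682, adjusted p = 0.00885, edgeR). Mylip, an LXR target that degrades the LDL receptor, is an addition to the named genes, picked with its values in view. It rose, with 47.4, 44.4 and 47.9 CPM in the libraries labelled DKO, against 40.4, 41.1 and 39.1 CPM in WT (log2 fold change 0.21 ± 0.054, adjusted p = 0.0288, edgeR). Abca1, the LXR-driven cholesterol exporter, had 247, 232 and 246 CPM in the libraries labelled DKO, against 199, 156 and 185 CPM in Ing1-KO (log2 fold change 0.42 ± 0.0913, adjusted p = 0.0241, edgeR), and its log2 fold change against WT was 0.20 (adjusted p = 0.167, edgeR). Abcg1, another LXR-driven sterol exporter, had 14.3, 15.6 and 13.2 CPM in the libraries labelled DKO, against 15.3, 8.67 and 10.7 CPM in Ing1-KO and 17.8, 12.9 and 17.7 CPM in WT, and was called against neither (log2 fold change 0.32, adjusted p = 0.282 against Ing1-KO and -0.17, adjusted p = 0.621 against WT, edgeR). In Ing1-KO against WT 1 target was called, Igfbp2, an IGF-binding protein, which rose (log2 fold change 0.77 ± 0.101, adjusted p = 0.00431, edgeR). Of all tested genes 4.32% were called there. The libraries labelled DKO also had the highest leukocyte marker sums of the 12 libraries, whose part in the values of these LXR targets was not tested.

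In the GENCODE annotation, 19 of the 38 members overlap a gene on the opposite strand, among them Mecom, Mlxipl, Ebf1, Bhlhe40 and Rora. The library kit does not mark strand, so reads of such a pair cannot be told apart where they overlap.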

How the data were processed

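Poly(A) RNA was sequenced in 12 libraries with a kit that does not mark strand, per the labels' protocols. The authors deposited raw read counts for each Ensembl gene. Tools named in the submitters' processing notes are TopHat2 2.0.9, Bowtie2 2.1.0 and HTSeq 0.5.4, with the builds mm9 and NCBIM37; the strand setting is not given in the sources used here. Lines that name no gene held 24.2% to 24.8% of each library and were left out.

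Computed here were CPM with TMM factors (0.986 to 1.01), RPKM over GENCODE M21 exon lengths, and tests with edgeR 4.0.16 in R 4.3.3: filterByExpr, robust quasi-likelihood, all 12 libraries in 1 fit of genotype means, and Benjamini-Hochberg adjustment over 16163 genes, called under 0.05. SE is the absolute log2 fold change over the square root of F. Leukocyte, adipocyte and other marker lists were summed or averaged per library. Symbols matched 32919 of 37991 identifiers. Common biological variation was 0.105, and every pair of replicates differed by more than sampling noise. On simulated counts for DKO against WT (15919 genes), 74.6% of 1.5-fold, 94.0% of 2-fold and 98.5% of 4-fold changes were recovered, with 9 false calls. The simulated noise was drawn for each gene separately, and no gene low in WT was changed. Spread common to many genes, as in the adipocyte markers, was not simulated, so these rates need not hold for the data.

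The members, their roles and the other lists were chosen with earlier results of these data known. All members are accounted for. Those called, or with the largest changes of their class, have values by library. Of other lists, called genes with the smallest adjusted p, up to 4 each, Pparg and Cebpa were to be named. That rule was not kept throughout. Mylip, Abcg1 and genes at 0 in some libraries are named outside it. Acaca, which fell in DKO against WT (log2 fold change -1.17 ± 0.197, adjusted p = 0.00885, edgeR), and the called relatives in DKO against Ing1-KO are not described above. Alternatives were RLE and upper-quartile scaling, DESeq2 1.42.0, no filter on low counts, a minimum mean of 5 CPM, the replicate number as a block, the adipocyte marker mean as a covariate, only the libraries compared, leaving out each library, and, added after seeing the data, the legacy quasi-likelihood fit.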

Additional observations from a re-analysis of the deposited data

How the results depend on the processing

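The count of members called moved as follows. Except for DESeq2, the share of all genes called is not given for these settings. The counts therefore do not show whether the members moved apart from all genes. In the libraries labelled DKO against WT (7 called) it was 4 with no filter on low counts, 13 with DESeq2 (16.5% of all genes), 1 with the adipocyte marker mean as a covariate, 15 with only the libraries compared, and 0 to 13 when a library was left out. In Ing1-KO against WT (4 called) it was 8 with the covariate and 1 to 7 without a library. In the libraries labelled DKO against Gadd45a-KO (0 called) it was 1 at a mean of at least 5 CPM, 5 with DESeq2, 1 with the covariate, 2 with only the libraries compared, and 0 to 2 without a library. In the libraries labelled DKO against Ing1-KO (10 called) it was 6 with no filter, 17 with DESeq2 (19.3% of all genes), 0 with the covariate, 4 with only the libraries compared, and 0 to 20 without a library. For the interaction it was 0 to 1 without a library. The count for Gadd45a-KO against WT was 0 under every setting run.

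With the covariate, Nr1h3 (0.41) and Mlxipl (0.41) changed sign in DKO against WT, and 17 of the 21 calls were lost. Over all 437 alternative values of these 21 results, 290 kept direction and call, 145 kept direction only and 2 changed sign. The cause was not tested, except that fits with fewer libraries have fewer degrees of freedom.

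With the replicate number as a block, the counts were 9 in DKO against WT, 4 in Ing1-KO against WT, 0 in Gadd45a-KO against WT, 0 in DKO against Gadd45a-KO, 7 in DKO against Ing1-KO and 0 for the interaction. Same-numbered libraries deviated little together over all genes, with r between -0.189 and 0.251 over 18 pairs and above 0.1 in 2. The labels do not say what the numbers stand for, so whether these libraries are paired is not known. Another scaling moved the median of all genes by at most 0.04 in size. Klf15, Mlxipl, Gata2, Gata3 and Tcf21 are limited by low counts.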
